A study of Mus musculus with 6 samples.

Results

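The Wnt and R-spondin pathway was examined through 50 genes that were picked by symbol: secreted Wnt and R-spondin ligands, their receptors, inhibitors, the core of the beta-catenin machinery and feedback targets. Genes specific to planar cell polarity were not included. All 50 were found among the 22851 gene symbols of the count table, and 43 of them had enough reads to be tested. The libraries came from cultured radial glia of the mouse, which are progenitors next to the brain ventricles and the source of ependymal cells. Cells were taken from brains at postnatal days 0 to 3 on a C57BL/6J background, grown in medium with 10% serum, and then kept without serum for 6 days so that they would form multiciliated ependymal cells. The 2 groups were wild-type (WT) cells and cells from Edf1 KO mice, a line made with CRISPR and Cas9, with 3 libraries each. The series describes the 3 libraries of a genotype as biological replicates, and the labels do not say how many animals each one holds. Expression is given as read counts scaled to a common library size (CPM).

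In canonical Wnt signalling, a secreted Wnt protein joins a Frizzled receptor and the co-receptor Lrp5 or Lrp6, which stops a complex built on Axin and Apc from destroying beta-catenin. Beta-catenin then enters the nucleus, binds TCF and LEF factors and switches on target genes, several of which (Axin2, Nkd1, Sp5, Rnf43, Notum) dampen the signal again. The membrane ubiquitin ligases Znrf3 and Rnf43 clear Frizzled from the cell surface, and R-spondins, bound to Lgr4, Lgr5 or Lgr6, remove these ligases and so make cells more sensitive to Wnt. In the embryonic forebrain, Wnt genes are best known from the dorsal midline, where they pattern the neighbouring tissue and keep progenitors dividing.

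The total count per library was 13071766 to 28087006, with WT replicate 2 the shallowest, and no library was left out. Edf1 itself had 80.1 to 85.8 CPM in WT and 9.83 to 13.2 CPM in KO cells, so the labels matched the targeted gene in all 6 libraries. All 8 multiciliated ependymal markers examined were detected in both genotypes and fell in the knockout, with a summed level of 1608 to 1758 CPM in WT and 980.2 to 1018 CPM in KO cells. Of all 14243 genes with enough reads, 26.9% were called by edgeR's quasi-likelihood test at a Benjamini-Hochberg threshold of 0.05, and 12.7% were higher and 14.2% lower in the knockout.

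Of the 43 tested pathway genes, 16 rose in Edf1 KO cells and 2 fell, against that background of 12.7% and 14.2%. Among those that rose were Axin2, Nkd1, Nkd2 and Sp5, the 4 genes grouped here as intracellular feedback targets. Of the feedback targets grouped by their place at or outside the membrane, Rnf43 rose and Notum did not pass. Znrf3, the other ligase gene, did not pass either (adjusted p 0.128, edgeR). Dkk1 and Lef1, targets in many tissues, had too few reads to be tested. This grouping was made with earlier results of these data known. Also higher were the R-spondin gene Rspo3, 6.89-fold, the receptor genes Fzd10, Fzd1 and Fzd2, the inhibitor genes Apcdd1, Dkk3, Sfrp1 and Kremen1, and the TCF factor gene Tcf7. The ligand genes Wnt4 and Wnt7a were the 2 that fell. The median log2 change of the 43 genes was 0.26, beside 0.0029 over all tested genes. Of the 43, 36 reached the count minimum in every library. The other 7 include Sp5, Rnf43, Wnt3, Wnt8b and Rspo1, which passed the count filter only because of their knockout libraries and are therefore biased toward a rise. Among the 36, 14 rose and 2 fell, and the median was 0.21. The groups did not overlap in 26 of the 43 genes, 21 with the knockout above WT and 5 below, beside 43.3% of all tested genes.

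**Figure D1:**
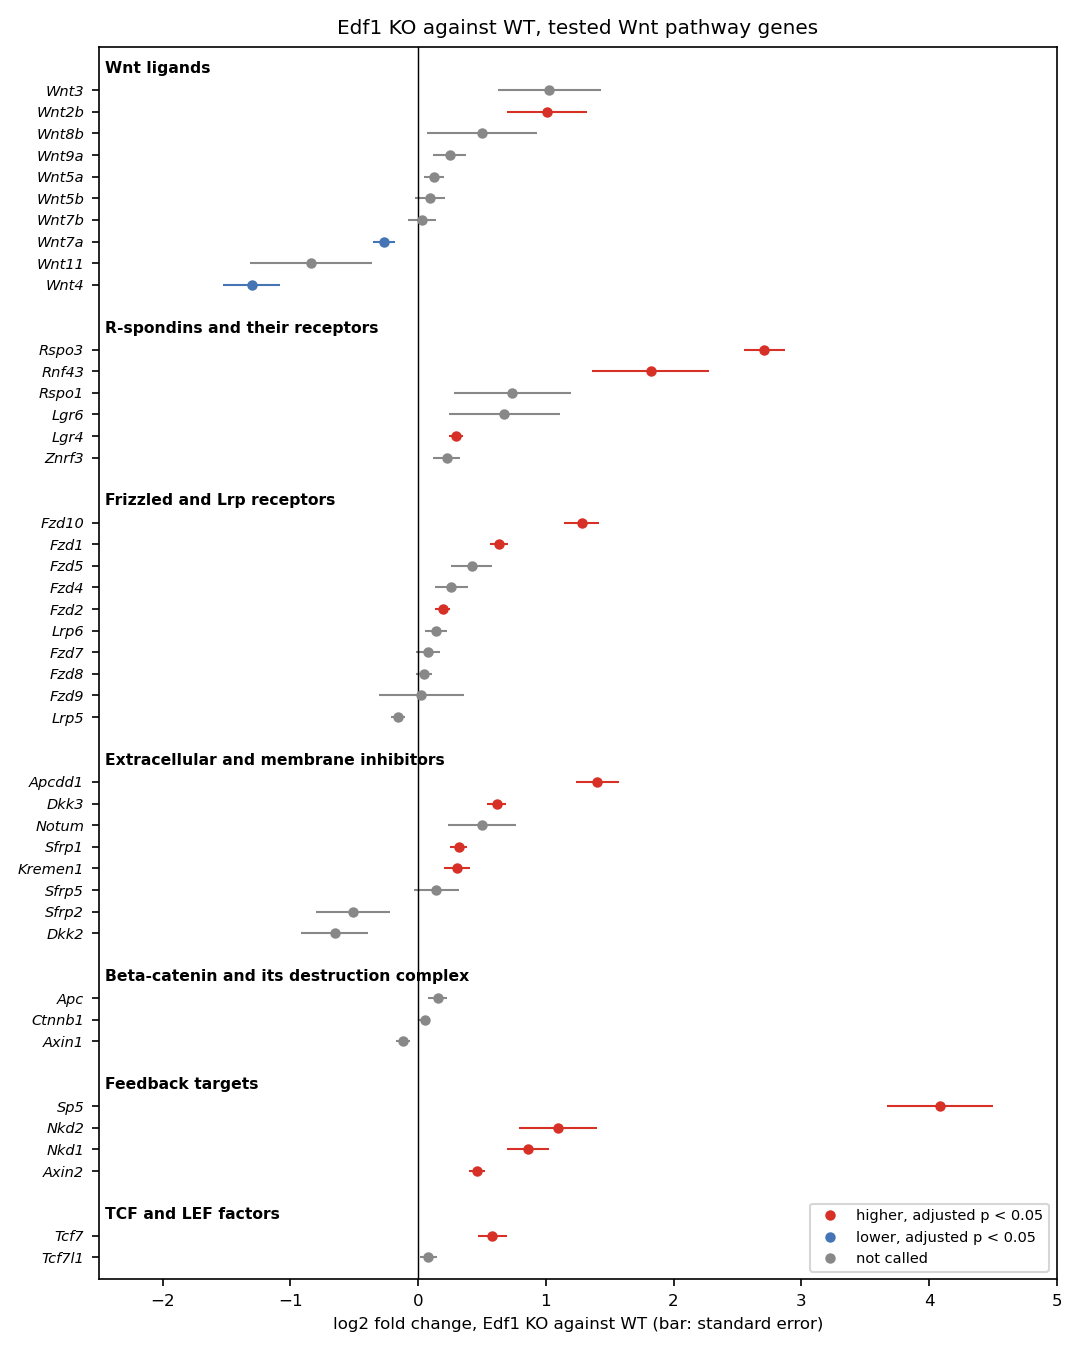
Log2 fold change of each tested Wnt pathway gene in Edf1 KO against WT (3 libraries each), grouped by role, with the standard error as a bar. Red points are genes called higher and blue points genes called lower at an adjusted p under 0.05; the 4 feedback targets all lie to the right of 0, and Wnt4 lies furthest to the left at -1.30.

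Wnt ligands were called in both directions, at shares near those of all tested genes. Of the 10 tested, 1 rose (10%) and 2 fell (20%), beside 12.7% and 14.2% of all tested genes. The median log2 change of the ligands was 0.11. Wnt5a, a ligand best known for beta-catenin-independent signalling, had the highest level per kilobase of exon among them, at 6.42 CPM per kilobase in WT. It had 48.2, 45.5 and 57.1 CPM in WT replicates 1, 2 and 3 and 56.1, 52.6 and 55.9 CPM in KO cells. These ranges overlap, and its log2 change of 0.12 (SE 0.079) did not pass (adjusted p 0.274, edgeR). It passed without WT replicate 3, at 0.23 with 0.0302 (adjusted p, edgeR), and was 0.068 with 0.488 without WT replicate 2 and 0.046 with 0.618 after correction for GC content and transcript length. Wnt7a followed at 5.19 CPM per kilobase and Wnt5b at 4.77. Together the 11 ligand genes gave 101 to 111 CPM in WT and 106 to 108 CPM in KO cells.

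Wnt4, whose product signals in the dorsal midline, kidney and gonad, had the deepest fall. It had 6.36, 8.85 and 5.08 CPM in WT and 2.09, 2.51 and 3.26 CPM in KO cells. The lowest WT library lay above the highest knockout library, and the mean fell to 38.7% of WT. The log2 change was -1.30 (SE 0.23, adjusted p 0.00102, edgeR). Of the summed ligand level per kilobase, Wnt4 made up 5.20% to 9.08% in WT and 2.18% to 3.49% in the knockout. Wnt7a, a ligand of neural progenitors and of brain vessels, went from 16.5 ± 0.58 to 13.7 ± 0.27 CPM (SD, n = 3 each), a log2 change of -0.27 (SE 0.084, adjusted p 0.0345, edgeR). Its call was lost without any 1 of WT replicates 1 and 3 and knockout replicates 1, 2 and 3, with values of -0.28 to -0.24 and adjusted ps of 0.0728 to 0.103 (edgeR).

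Wnt2b, a ligand of the cortical hem and other dorsal tissues, had 1.05, 0.621 and 1.14 CPM in WT and 1.29, 2.45 and 2.09 CPM in KO cells. Every knockout library lay above every WT library, but knockout replicate 1 was close to WT. The log2 change of 1.01 (SE 0.31, adjusted p 0.0311, edgeR) lost its call when WT replicate 1 or 2 or KO replicate 2 or 3 was left out, with values of 0.84 to 1.10 and an adjusted p of 0.0528 to 0.123. With the replicate number as a block the call was lost as well, at 0.95 (adjusted p 0.0515, edgeR). Of other ligands known from the cortical hem, Wnt5a was abundant, as given above, while Wnt3a and Wnt8b were close to the limit of detection: Wnt3a had 0 counts in 5 libraries and 1 in the sixth, and Wnt8b had 0.422 ± 0.26 CPM in WT and 0.663 ± 0.047 CPM in KO cells (SD, n = 3 each). Markers of the roof plate and cortical hem summed to 10.4 to 11.3 CPM in WT and 8.07 to 9.34 CPM in KO cells. Of these markers, 1 of 3 tested genes, Msx1, was called lower (33.3%), beside 14.2% of all tested genes. The part of these markers in the Wnt values was not tested.

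The R-spondin genes differed most by Rspo3. It had 3.16, 1.63 and 3.03 CPM in WT and 18.4, 16.9 and 18.5 CPM in KO cells, from 84, 21 and 56 reads and 300, 303 and 524 reads. The knockout libraries lay close together and far above all 3 WT libraries, of which WT replicate 2 was the lowest. The log2 change was 2.71 (SE 0.16, adjusted p 3.36e-07, edgeR), which ranks 11 from the top among the 14243 tested genes. Rspo3 is on chromosome 10 at 29452416 to 29535867, minus strand (GRCm38, GENCODE M21), and 13.07% of its exon bases overlap the antisense gene Gm48159, whose reads would be counted with it if strand was ignored.

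Rspo3 was the R-spondin with the highest level per kilobase in every library. Its share of the summed level of the 4 R-spondin genes was 87.0%, 47.1% and 69.5% in WT replicates 1, 2 and 3 and 90.5% to 93.4% in the knockout. Rspo1 had 0.540 ± 0.31 CPM in WT and 0.812 ± 0.22 CPM in KO cells (SD, n = 3 each), with overlapping ranges. Rspo2 had 3 to 10 counts in a library and Rspo4 0 to 2, and neither was tested.

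The R-spondin receptor present in these cells was Lgr4. It had 63.3, 59.9 and 65.3 CPM in WT and 78.8, 75.7 and 77.4 CPM in KO cells. The groups did not overlap, and the log2 change was 0.30 (SE 0.056, adjusted p 0.00194, edgeR). Lgr5, a stem cell marker of gut and skin, had 2 to 7 counts in a library, and Lgr6 0.462 ± 0.092 CPM in WT and 0.811 ± 0.42 CPM in KO cells (SD, n = 3 each), a difference within their spread.

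The 2 ligases that R-spondins act on had very different levels. Znrf3 was the main one, with 14.8 ± 1.66 CPM in WT and 17.4 ± 1.33 CPM in KO cells (SD, n = 3 each), and its log2 change of 0.22 (SE 0.10) did not pass (adjusted p 0.128, edgeR); without WT replicate 3 it passed, at 0.32 with 0.0455. Rnf43, itself a classical Wnt target, was far lower, with 0.301, 0.155 and 0.108 CPM in WT and 0.737, 0.835 and 0.672 CPM in KO cells. These are 8, 2 and 2 reads against 12, 15 and 19, and the groups did not overlap. Over the pooled reads of each genotype the knockout level was 3.55 times that of WT, with a 95% interval of 1.85 to 7.37. This interval covers counting error only. The gene passed the test (adjusted p 0.0112, edgeR), though not at the threshold of 0.01. It was tested only because of its knockout libraries, so the interval and the test are biased toward a rise.

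**Figure D2:**
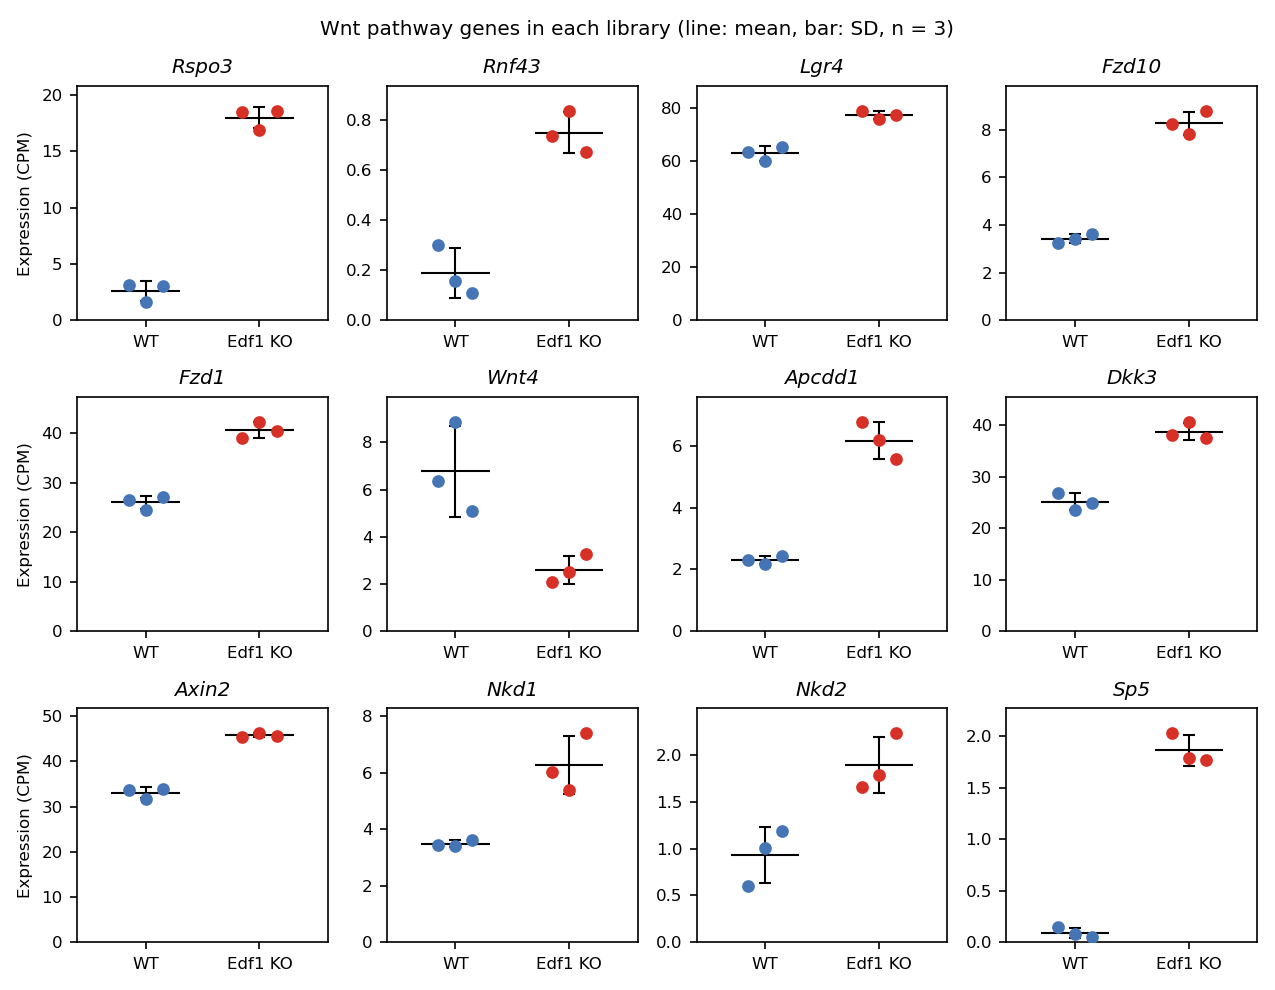
Expression in CPM of 12 Wnt pathway genes, with a separate linear axis from 0 for each gene. Each point is 1 library (blue, WT; red, Edf1 KO), the line is the mean and the bar the SD of 3 libraries. In each of the 12 panels the groups do not overlap, and Wnt4 is the one gene with lower knockout values. The 12 genes were picked from the called ones, and Wnt7a, also called lower, is not shown. Over all tested genes, the groups did not overlap in 43.3%.

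Among the receptors, 3 of 10 tested genes rose (30%), beside 12.7% of all tested genes. Fzd2 had the highest level of the Frizzled and Lrp genes per kilobase, 15.1 CPM per kilobase in WT. It had 56.2, 57.3 and 52.9 CPM in WT and 61.6, 64.3 and 64.2 CPM in KO cells. The groups did not overlap, but the difference was small, with a log2 change of 0.19 (SE 0.058, adjusted p 0.0260, edgeR). Its call was lost without WT replicate 1 or 3 or any 1 knockout library, with values of 0.16 to 0.21 and adjusted ps of 0.0523 to 0.0917 (edgeR).

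Fzd10, a receptor of the dorsal neural tube and dorsal forebrain, had the largest rise of the receptors. It had 3.24, 3.42 and 3.62 CPM in WT and 8.23, 7.80 and 8.78 CPM in KO cells, a log2 change of 1.28 (SE 0.14, adjusted p 2.72e-05, edgeR). Its lowest knockout library was above 2 times its highest WT library. Fzd10 is a gene of chromosome 5, at 128600844 to 128604093 on the plus strand. Fzd1 had 26.4, 24.5 and 27.2 CPM in WT and 39.1, 42.2 and 40.5 CPM in KO cells, with no overlap. Its log2 change was 0.64 (SE 0.072, adjusted p 3.72e-05, edgeR). Of the 31-mers in Fzd1 transcripts, 1.61% also occur in Fzd2 or Fzd7, so few reads can be mixed up between these 3 genes.

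The other receptor genes did not pass. Fzd4, Fzd5, Fzd7, Fzd8 and Fzd9 had log2 changes of 0.027 to 0.42, and Fzd5 passed without WT replicate 3 (0.53, adjusted p 0.0439, edgeR) and with no filter on low counts (0.42, 0.0472), and was 0.25 with 0.124 without WT replicate 2, its lowest library. The co-receptor genes Lrp5 and Lrp6 stood at 8.68 and 8.12 CPM per kilobase in WT. Lrp6 had 118, 91.9 and 123 CPM in WT and 124, 121 and 124 CPM in KO cells, so that WT replicate 2 stood apart from the other 5 libraries. Lrp5 had 81.7, 88.8 and 83.0 CPM in WT and 75.8, 77.6 and 74.1 CPM in KO cells. The Lrp5 groups did not overlap, but the log2 change of -0.15 (SE 0.056) did not pass (adjusted p 0.0600, edgeR). It passed after correction for GC content and transcript length, at -0.29 with 0.00546 (edgeR).

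The inhibitors that act outside the cell or at the membrane were partly higher. Of 8 tested, 4 rose (50%) and 0 fell, beside 12.7% and 14.2% of all tested genes. The median log2 change of the inhibitors was 0.31. Apcdd1, a membrane inhibitor that binds Wnt and Lrp5, had 2.30, 2.17 and 2.43 CPM in WT and 6.76, 6.18 and 5.56 CPM in KO cells. The knockout mean was 2.68 times the WT mean with no overlap, and the log2 change was 1.404 (SE 0.17, adjusted p 5.71e-05, edgeR). Dkk3, a divergent member of the Dickkopf family, had 26.8, 23.5 and 24.9 CPM in WT and 38.0, 40.5 and 37.5 CPM in KO cells. Its log2 change was 0.62 (SE 0.075, adjusted p 6.84e-05, edgeR), also with no overlap.

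Sfrp1, a secreted protein that traps Wnt and is typical of radial glia, had the highest level of the inhibitors, 12.5 CPM per kilobase in WT. It had 58.2, 49.6 and 56.8 CPM in WT and 70.97, 65.2 and 69.8 CPM in KO cells. All knockout libraries were above all WT libraries, and the log2 change was 0.32 (SE 0.069, adjusted p 0.00452, edgeR). Kremen1, a Dickkopf receptor, had 17.7, 16.7 and 19.1 CPM in WT and 25.2, 21.6 and 19.99 CPM in KO cells. Its groups came close, and the log2 change of 0.31 (SE 0.099, adjusted p 0.0378, edgeR) lost its call when WT replicate 1 (0.30, 0.103), KO replicate 1 (0.21, 0.160) or KO replicate 2 (0.32, 0.0798) was left out.

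The remaining inhibitors did not pass. Dkk2 had 2.31 ± 0.63 CPM in WT and 1.49 ± 0.20 CPM in KO cells (SD, n = 3 each), with a log2 change of -0.65 (SE 0.26, adjusted p 0.0844, edgeR); without WT replicate 2 it passed, at -0.75 with 0.0465, and without WT replicate 3 it was -0.41 with 0.315. Notum, a lipase that strips Wnt of its lipid and is a feedback target in other tissues, had 1.405 ± 0.43 CPM in WT and 2.08 ± 0.31 CPM in KO cells (SD, n = 3 each), a log2 change of 0.50 (SE 0.27, adjusted p 0.190, edgeR). Antisense genes overlap 38.1% of the exon bases of Notum, which makes its level uncertain if strand was not used. Sfrp2 and Sfrp5 had log2 changes of -0.51 and 0.14. Dkk1, the best known secreted inhibitor and a Wnt target in many tissues, had 0 counts in all 6 libraries, which allows up to 0.106 to 0.233 CPM per library, and Wif1 had 3 to 13 counts in a library.

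Ctnnb1, Apc and Axin1, the genes grouped here as beta-catenin and its destruction complex, were abundant and close to WT. Ctnnb1, which encodes beta-catenin, had 275 CPM per kilobase in WT, the highest of the 50 genes. It had 1435, 1423 and 1420.1 CPM in WT and 1463, 1493 and 1478 CPM in KO cells. The knockout libraries were all slightly higher, and the log2 change of 0.051 (SE 0.040) did not pass (adjusted p 0.384, edgeR). The scaffold genes Apc and Axin1 had log2 changes of 0.15 (SE 0.076, adjusted p 0.162, edgeR) and -0.12 (SE 0.056, adjusted p 0.146, edgeR). Of these 3 genes, 0 passed in edgeR and 0 had an unadjusted p under 0.05, and 0 passed in DESeq2 or limma voom. Axin1 passed after correction for GC content and transcript length (-0.15, adjusted p 0.0329, edgeR), and Apc passed with the replicate number as a block (0.16, adjusted p 0.0409, edgeR). Apc had 236 CPM in WT replicate 2 and 294 to 317 CPM in the other 5 libraries. The related gene Apc2, read with the further cytoplasmic genes below, did rise. It went from 33.2 ± 1.66 to 43.7 ± 3.22 CPM (SD, n = 3 each), a log2 change of 0.39 (SE 0.075, adjusted p 0.00215, edgeR).

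**Figure D3:**
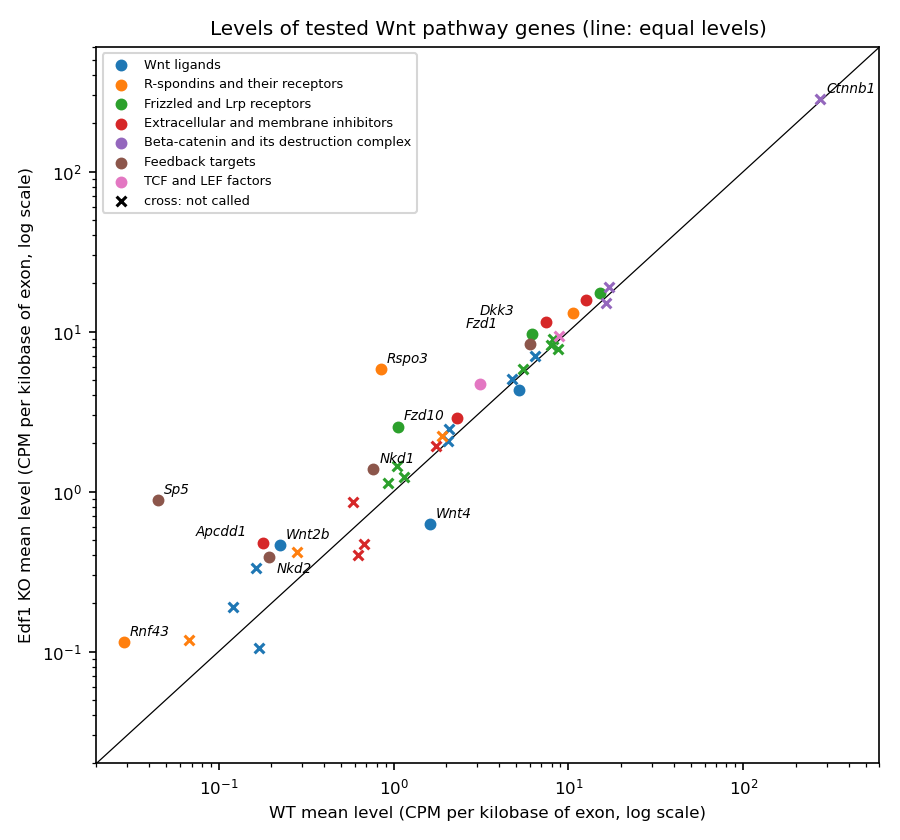
Mean level of the 43 tested genes in WT (horizontal axis) and Edf1 KO (vertical axis), in CPM per kilobase of exon on log scales, colored by role; dots are called genes and crosses are not. Ctnnb1 lies close to the line of equal levels at 275 CPM per kilobase in WT, while Rspo3 and Sp5 lie far above the line and Wnt4 below it.

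The 4 intracellular feedback targets were each called higher, Sp5 after passing the count filter only through its knockout libraries; the secreted feedback inhibitor Notum, given above, did not pass. Axin2, the Axin copy that beta-catenin itself induces and a standard readout of the pathway, had the highest level of the 4, 6.01 CPM per kilobase in WT. It had 33.7, 31.7 and 33.9 CPM in WT and 45.4, 46.2 and 45.5 CPM in KO cells. Both groups were tight and did not overlap, and the log2 change was 0.46 (SE 0.063, adjusted p 0.000159, edgeR). The gene lies on chromosome 11 at 108920349 to 108950783, plus strand. Its paralog Axin1 did not pass, as given above.

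Nkd1 and Nkd2 encode Naked cuticle proteins, which bind Dishevelled and restrain the signal. Nkd1 had 3.43, 3.42 and 3.62 CPM in WT and 6.02, 5.40 and 7.396 CPM in KO cells, with a log2 change of 0.86 (SE 0.16, adjusted p 0.00200, edgeR). Nkd2 had 0.602, 1.01 and 1.19 CPM in WT and 1.66, 1.78 and 2.23 CPM in KO cells. Neither gene had overlapping groups. The Nkd2 log2 change of 1.09 (SE 0.30, adjusted p 0.0184, edgeR) lost its call without WT replicate 1 (0.79, 0.101) or knockout replicate 3 (0.94, 0.101).

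Sp5 encodes a zinc finger repressor that beta-catenin induces directly and that competes at Wnt-responsive sites. It was near the limit of detection in WT, with 4, 1 and 1 reads, and had 33, 32 and 50 reads in the knockout. In CPM these are 0.151, 0.0777 and 0.0540 against 2.03, 1.78 and 1.77. All 3 knockout libraries were far above WT, but per kilobase the knockout level of 0.886 CPM stayed below that of Axin2 at 8.30. Over the pooled reads the knockout level was 17.8 times the WT level, with a 95% interval of 7.92 to 49.4 for counting error only. The gene passed the test (adjusted p 1.73e-05, edgeR). Sp5 too was tested only because of its knockout libraries, so the interval and the test are biased toward a rise. Of its 31-mers, 3.96% also occur in the related gene Sp9.

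Sp5 is also the one called gene, of 12 with a sequence, whose start region held the TCF and LEF motif. The 300 bases around each annotated start, 250 before and 50 after, were taken from RefSeq (GRCm38.p6) and searched on both strands for CTTTGAA or CTTTGAT, the core that TCF and LEF factors bind. A window was found for 33 of the 50 genes. The motif stood in at least 1 window of 4 of these 33 genes (12.1%), beside 7.19% of the 11342 tested genes with a window. These are unlike sets, because the 33 include 5 genes that were not tested, of which 1, Dkk1, held the motif. Per window it stood in 9.52% of 42, beside 8.65% of all 32851 windows. Of the 10 genes with a window that rose, 1 held it. The 250 bases before the Sp5 start, on the plus strand at chr2:70474673-70474922, are shown with the motif in capitals, 104 bases before the start. Sp5 was the only called gene among the feedback targets and the TCF and LEF factors that held the motif.
Sp5: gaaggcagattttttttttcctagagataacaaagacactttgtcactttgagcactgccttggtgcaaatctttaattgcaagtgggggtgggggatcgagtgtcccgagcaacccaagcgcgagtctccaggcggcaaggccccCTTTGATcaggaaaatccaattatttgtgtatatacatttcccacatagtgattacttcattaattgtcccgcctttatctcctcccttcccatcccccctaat

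The 4 genes with the motif did not behave alike, as the 31 bases around each motif and the values below show. The last 3 are the other genes that held the motif, and they were added after their values were seen. Each is written 5′ to 3′ along the strand of its gene, and the capitals mark the motif.
Sp5: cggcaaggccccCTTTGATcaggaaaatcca
Wnt5b: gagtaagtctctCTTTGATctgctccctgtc
Wnt11: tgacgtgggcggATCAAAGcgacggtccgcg
Dkk1: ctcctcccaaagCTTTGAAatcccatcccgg

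Sp5 (chr2:70474807-70474837, plus strand) rose, as given above. Wnt5b (chr6:119449439-119449469, minus strand) had 12.7 ± 1.44 CPM in WT and 13.4 ± 1.75 CPM in KO cells, and Wnt11 (chr7:98835049-98835079, plus strand) 0.705 ± 0.31 and 0.438 ± 0.27 CPM (SD, n = 3 each). Both differences lie within the spread of the libraries. Dkk1 (chr19:30549595-30549625, minus strand) had 0 counts in all 6 libraries. The windows of Axin2, Nkd1, Nkd2 and Tcf7 did not hold these letters, and sites further away were not searched.

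Of the 3 TCF and LEF genes among the 50, Tcf7l1, a repressor of Wnt targets in progenitors, had the highest level at 8.88 CPM per kilobase in WT. Tcf7l2, read with the further genes below, stood at 9.69 CPM per kilobase in WT and did not pass (log2 change 0.057, adjusted p 0.510, edgeR). Tcf7l1 had 36.5, 33.6 and 34.4 CPM in WT and 35.6, 38.1 and 37.0 CPM in KO cells, with overlapping groups and a log2 change of 0.081 (SE 0.068, adjusted p 0.417, edgeR). Tcf7, which is both a mediator and a target of the pathway, had 8.17, 7.15 and 9.13 CPM in WT and 11.7, 12.8 and 12.3 CPM in KO cells. It rose without overlap, at a log2 change of 0.58 (SE 0.11, adjusted p 0.00228, edgeR). Lef1, a target in many tissues, had 1 to 6 counts in a library and was not tested.

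A further 65 genes of the pathway were then read from the same fit. Of these, 51 were tested, 13 rose (25.5%) and 2 fell (3.92%), beside 12.7% and 14.2% of all tested genes. Their median log2 change was 0.096. All 8 further Wnt ligand genes (Wnt1, Wnt2, Wnt6, Wnt8a, Wnt9b, Wnt10a, Wnt10b and Wnt16) had too few reads to be tested. Of 11 genes for Wnt secretion and reception, 7 rose. Wls, the carrier that brings Wnt proteins to the cell surface, went from 311 ± 9.63 to 449 ± 8.30 CPM (SD, n = 3 each), a log2 change of 0.53 (SE 0.045). The glypican gene Gpc4 had a log2 change of 0.50 (SE 0.044) and the receptor kinase gene Ror1 of 0.67 (SE 0.11). Adgra2 and Reck, whose products form the Wnt7 co-receptor of brain vessels, had 0.98 (SE 0.18) and 0.63 (SE 0.090). The adjusted ps of these 5 genes were at most 0.00132 (edgeR).

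Among further inhibitors, 2 of 7 tested genes rose. Sfrp4 went from 2.43 ± 0.85 to 5.37 ± 0.56 CPM and Tmem88, a membrane protein that binds Dishevelled, from 0.506 ± 0.052 to 2.52 ± 0.37 CPM (SD, n = 3 each). Their log2 changes were 1.09 (SE 0.23, adjusted p 0.00337, edgeR) and 2.29 (SE 0.28, adjusted p 7.23e-05, edgeR). Tmem88 had only 15, 6 and 9 reads in WT and passed the count filter only because of its knockout libraries. Its test is therefore biased toward a rise. The cytoplasmic genes (Dishevelled, GSK3, casein kinases, tankyrases and others) stayed closest to WT, with 1 of 16 higher, 1 lower (6.25% each) and a median of 0.030. Among 12 nuclear genes 1 rose and 1 fell (8.33% each). These shares are below those of all tested genes, 12.7% higher and 14.2% lower. The one that fell was Cby1, whose product Chibby both antagonises beta-catenin and sits at the base of cilia, from 183 ± 19.8 to 104 ± 1.37 CPM (SD, n = 3 each), a log2 change of -0.81 (SE 0.070, adjusted p 4.34e-06, edgeR).

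Of the 5 tested genes that are often cited as targets outside the feedback loop, 2 rose (40%), beside 12.7% of all tested genes. Ccnd1, which encodes cyclin D1, went from 80.4 ± 8.79 to 136 ± 9.74 CPM, a log2 change of 0.75 (SE 0.080, adjusted p 2.38e-05, edgeR). Twist1, also a fibroblast gene, went from 2.34 ± 0.30 to 4.04 ± 0.036 CPM (SD, n = 3 each), a log2 change of 0.79 (SE 0.18, adjusted p 0.00676, edgeR). Myc had a log2 change of -0.17 and did not pass (adjusted p 0.140, edgeR).

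Markers of other cell types moved with genotype too, and several pathway genes are also expressed in such cells. The counts of called markers stand beside 12.7% higher and 14.2% lower among all tested genes. In bulk RNA, more cells of a type and more RNA per cell cannot be told apart. Rspo3, for one, is known from stromal and vascular cells. Of 8 tested fibroblast markers 5 were called higher (Col1a1, Col1a2, Col3a1, Lum and Dcn), and their list summed to 77.1 to 96.3 CPM in WT and 134 to 178 CPM in KO cells. That is 1.76 times higher, beside 6.89 times for Rspo3, while the fibroblast genes Slc6a13 and Crabp2 were too low to test and Pdgfra had a log2 change of -0.091. Of 8 mural markers 3 were tested and all were higher, with 529 to 562 CPM in WT and 645 to 696 CPM in KO cells, but Rgs5, Kcnj8, Abcc9, Des and Vtn were too low to test. The endothelial list was led by Kdr, which rose, and went from 46.1 to 52.8 CPM in WT to 130 to 134 CPM in KO cells, while Flt1 fell, and Pecam1, Cdh5, Cldn5, Tek and Esam were too low to test.

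Other marker lists gave these values, again beside 12.7% higher and 14.2% lower among all tested genes. Microglial markers fell in 8 of 9 genes, from 1728 to 1873 CPM summed in WT to 1123 to 1146 CPM in KO cells. The pituitary list summed to 17.2 to 20.4 CPM in WT and 28.9 to 35.4 CPM in KO cells. Of its 4 tested genes Prl (0 counts in WT), Pomc and Cga were higher, and Lhb, the main part of the WT sum, fell from 14.7 ± 1.30 to 5.58 ± 0.53 CPM (SD, n = 3 each). Prl and Cga (1, 2 and 3 reads in WT) passed the count filter only because of their knockout libraries, so their tests are biased toward a rise. Choroid plexus markers had overlapping sums (96.99 to 125 and 113 to 135 CPM), with Kl, Aqp1, Kcne2 and Prlr too low to test and 1 of 4 tested genes, Otx2, higher. Oligodendrocyte lineage markers had 1 of 5 tested genes higher (20%) and neuronal markers 2 of 5 lower (40%). Among the latter, Dcx passed the count filter only because of its WT libraries, so its test is biased toward a fall. Radial glia and astrocyte markers had 3 of 8 higher and 2 lower, with sums of 9693 to 10192 CPM in WT and 10653 to 11075 CPM in KO cells. The part of these cell types in the changes of the pathway genes was not tested.

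**Figure D4:**
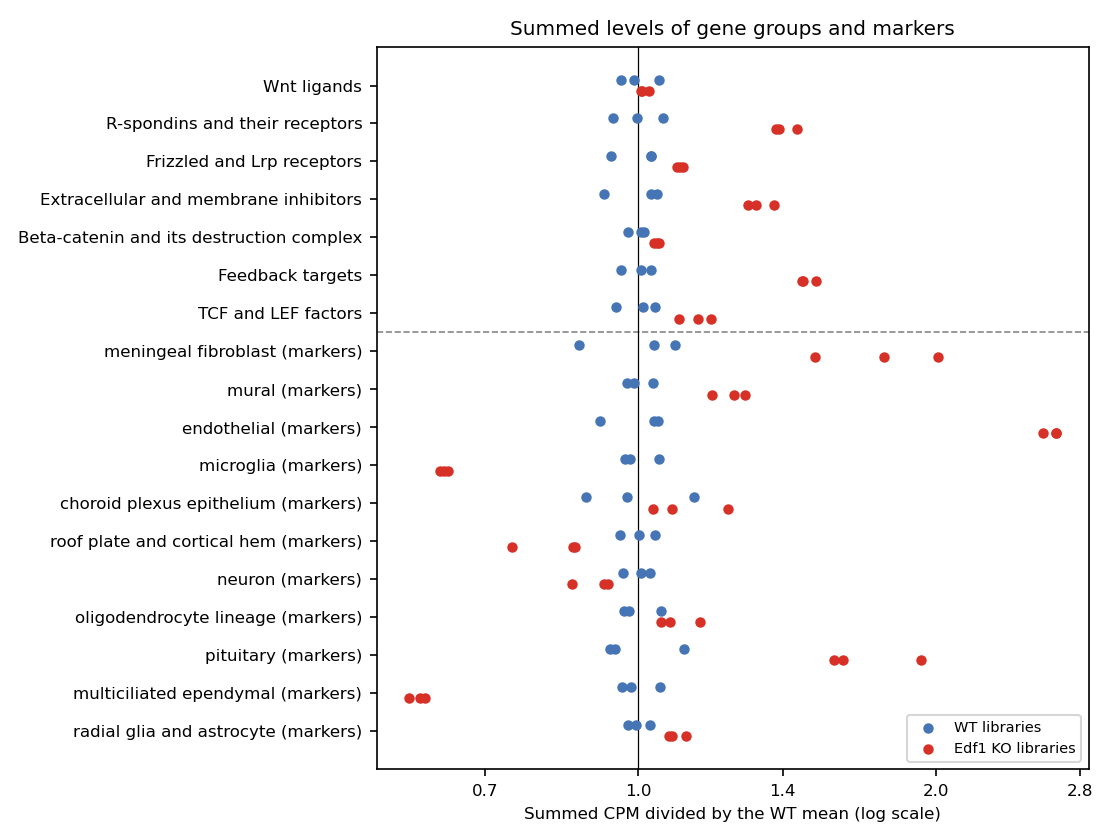
Summed CPM of each role of the pathway (above the dashed line) and of each list of cell type markers (below it), divided by the WT mean and drawn on a log scale; blue points are WT and red points Edf1 KO libraries. Of the roles, the feedback targets, the R-spondin genes with their receptors and ligases, and the inhibitors lie furthest above 1 in the knockout, with ratios of 1.48, 1.41 and 1.33; so do the fibroblast, mural, endothelial and pituitary markers, while the multiciliated ependymal and microglial markers lie below 1.

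By role, the summed level separated the genotypes most for the feedback targets, with 36.2 to 38.8 CPM in WT and 55.1 to 56.9 CPM in KO cells, which is 1.48 times higher. The R-spondin genes with their receptors and ligases followed at 1.41 times (77.5 to 87.1 and 113 to 119 CPM) and the inhibitors at 1.33 times (101 to 114 and 141 to 149 CPM). The TCF and LEF genes stood at 1.15 times and the Frizzled and Lrp genes at 1.10 times. Ctnnb1, Apc and Axin1 together stood at 1.04 times and the Wnt ligands at 1.01 times. Each sum is led by its most abundant gene, such as Axin2, Lgr4 and Sfrp1.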

How the data were processed

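Per the labels' protocols, RNA came from a TRIzol extraction and went into the MGIEasy mRNA library kit. The submitters' processing notes name FastQC 0.11.2, cutadapt 1.11, HISAT2 2.1.0 and the build GRCm38; the counting program, annotation and use of strand are not given in the sources used here. The authors deposited whole-number read counts, 1 column per library; 0 rows named no gene and 0 columns were left unused.

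The counts were tested as deposited in R 4.3.3 with edgeR 4.0.16: filterByExpr (14243 of 22851 genes kept), TMM scaling and the quasi-likelihood test of Edf1 KO against WT on all 6 libraries, Benjamini-Hochberg adjusted over these 14243 genes, at a threshold of 0.05. The standard error is the absolute log2 fold change over the root of the F statistic. CPM use TMM-scaled totals; CPM per kilobase divides by merged exon length in GENCODE M21. Limits of detection are 3 counts. The fit was tried on simulated data of 14243 genes, of which 200 were changed 2-fold. It recovered 92% of these, and 10.2% of its calls were false, more than the threshold of 0.05 aims at.

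Alternatives were DESeq2 size factors, library size alone, other count filters, DESeq2 1.42.0, limma 3.58.1 (voom), a replicate block, each library left out, a threshold of 0.01 and a correction for GC content and transcript length (splines with 4 degrees of freedom). Counting only genes above the count cutoff in every library was added after seeing the data. The genes, lists and tests were chosen with earlier results of these data known. Values per library are given for pathway genes called with an absolute log2 fold change of at least 0.3 and for the most abundant gene of each role. Further pathway genes are named if called with at least 0.5. Other genes were named after their values were seen.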

Additional observations from a re-analysis of the deposited data

How the results depend on the processing

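Of the 18 called genes, 12 kept their call and direction in every alternative in which they were tested at a threshold of 0.05 or 0.01, and 0 changed direction. The count of genes that rose (16) ran from 11 with the threshold of 0.01 and 12 with a mean of at least 50 counts to 17 with no filter, and from 12 to 18 over the fits that left out 1 library. The count that fell (2) was 1 with DESeq2, 1 with the threshold of 0.01 and 4 after correction for GC content and transcript length, and 1 to 3 without 1 library. The 2 further pathway genes that fell became 1 with library size alone, no filter, DESeq2, limma voom or the threshold of 0.01, 5 after the GC and length correction, and 1 to 5 without 1 library. The median log2 fold change of the pathway genes was 0.20 to 0.27 over the fits on all libraries and 0.21 to 0.32 without 1 library. Some genes near 0 changed sign without a call. After the GC and length correction these were Wnt7b (-0.012), Fzd8 (-0.020), Fzd9 (-0.0027) and Apc (-0.0037), and Fzd9 also in limma voom (-0.045). Without 1 library they were Wnt5b (-0.0098 without knockout replicate 2), Wnt7b (-0.0051 without WT replicate 1 and -0.00021 without knockout replicate 1) and Fzd9 (-0.20 without WT replicate 2 and -0.30 without knockout replicate 1). Their highest values without 1 library were 0.19 (Wnt5b), 0.091 (Wnt7b) and 0.30 (Fzd9). The cause was not tested. Wnt7a also lost its call in DESeq2 (-0.26, adjusted p 0.0929). With 2 libraries left in a genotype, their spread is assumed to be that of the other group. With the replicate number as a block, 16 pathway genes rose and 2 fell, and of the further genes 15 rose and 1 fell. Deviations of same-numbered libraries from the means of their genotypes correlated at 0.069, 0.060 and 0.037, and 6 of 6 libraries correlated best with their own number, so the number is at most a hint of pairing and none was assumed. Depth limits genes under about 1 CPM: 7 of the 50 genes could not be tested.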
